A study of Mus musculus with 2 samples.

Results

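Fc receptors bind the constant part of antibodies and tell a macrophage that an antibody-coated target has been met. The genes described here are the low- and high-affinity IgG receptors Fcgr1, Fcgr2b, Fcgr3 and Fcgr4, the signalling chain Fcer1g, the IgE receptors Fcer1a and Fcer2a, the neonatal receptor Fcgrt and the Fc receptor-like gene Fcrls. They were chosen by name, and all 9 had a probe on the array, 1 probe each, among 20652 genes with a RefSeq symbol. RNA came from bone marrow-derived macrophages (BMDMs), which are macrophages grown from marrow cells with the growth factor M-CSF, here for 7 days. The donors were male mice of the C57BL/6 background, 8 weeks old and of genotype Crif1 f/f, in which Crif1 is flanked by loxP sites and for which no Cre is named. This genotype was shared by both groups, and the number of animals behind each RNA is not given in the sources used here. One RNA was from BMDMs left untreated and the other from BMDMs given IL-4, a cytokine of type 2 immunity that drives macrophages toward the M2 state, for 18 h, at a concentration not given for the arrays. A single-colour Agilent array was run once per condition, so no difference has a replicate check, no p-value is given and the 2 arrays limit the precision.

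The activating receptors Fcgr1, Fcgr3 and Fcgr4 carry no signalling motif of their own and work through the common γ chain encoded by Fcer1g, whose ITAM, an activating tyrosine motif, recruits the kinase Syk and leads to phagocytosis and cytokine release. Fcgr2b, the only classical inhibitory Fcγ receptor, carries an ITIM, an inhibitory tyrosine motif that brings phosphatases such as SHIP1 to the same signalling complex, and the balance of both kinds sets how a macrophage responds to immune complexes. Fcer1a and Fcer2a bind IgE and are best known on mast cells and B cells, and Fcgrt returns IgG from endosomes to the cell surface.

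A level is given as the background-subtracted fluorescence intensity of the probe, and a difference as log2 intensity after IL-4 minus log2 intensity in untreated BMDMs, once the 75th percentile of each array has been subtracted. That percentile was 9.84 for untreated BMDMs and 9.94 after IL-4. Intensities of different probes depend on the probe, so levels are set against each other only within a gene. A gene is called detected on an array where the scanner software flagged its probe as well above background. Of the 9 genes, 7 were detected on both arrays, and Fcer1a and Fcer2a on neither. Among these 7, 1 gene (Fcgr2b) was higher after IL-4 by 2-fold or more, as were 2.86% of the 19743 genes detected on 1 or both arrays. In the other direction 1 gene (Fcgr1) was lower by 2-fold or more, as were 4.47% of the same 19743 genes. Over the genes detected on both arrays, as these 7 were, the shares were 2.11% higher and 1.57% lower. With 7 genes, counts of 1 are too small to be read against these shares. The median difference of the 7 genes was 0.23, against -0.01 for the 17242 genes detected on both arrays. The 5th and 95th percentiles of those genes were -0.62 and 0.56, and 5 of the 7 receptor genes lay between them, all but Fcgr1 and Fcgr2b. The split of changed genes moved with the scaling and with the filter on dim probes. The higher genes made up 39.0% of all genes past 2-fold here and 48.8% without scaling. This share was 52.3% with cyclic loess, 60.1% with quantile normalization, 59.5% with scaling on the median and 69.4% with scaling on spike-in probes. Under the scaling used here it was 57.3% among genes detected on both arrays and 25.4% without a filter on dim probes.

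**Figure D1:**
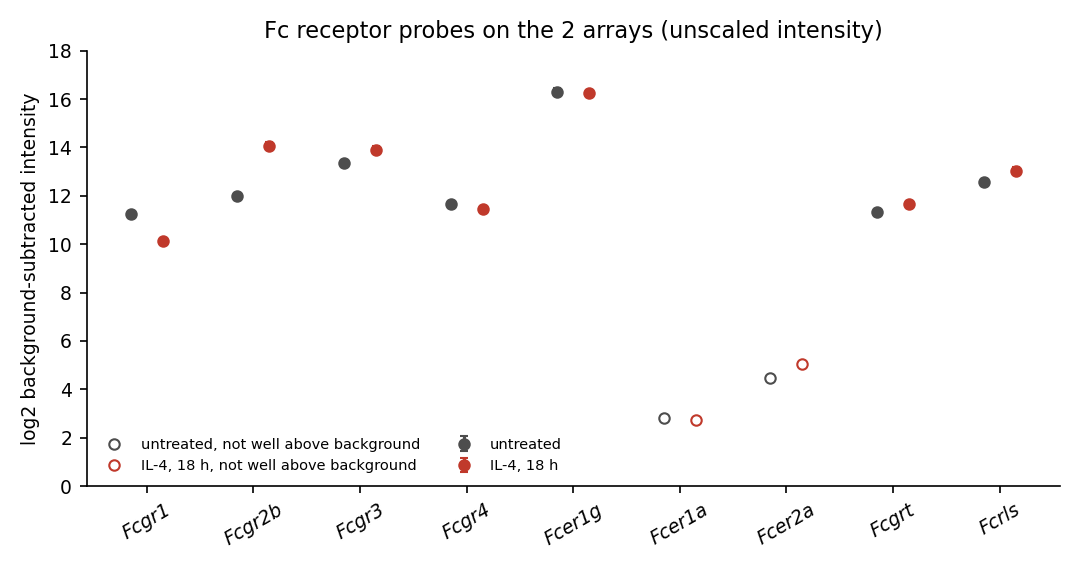
Log2 background-subtracted intensity (unscaled) of the probe for each of the 9 Fc receptor genes on the untreated and the IL-4 array, with the scanner software's error as bars, which are smaller than most symbols, and open symbols for probes that were not detected. Fcgr2b is higher and Fcgr1 lower after IL-4, while the points of the other detected genes lie close together.

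Of the IgG receptors, the inhibitory Fcgr2b was higher after IL-4 and the high-affinity activating receptor Fcgr1 was lower. Fcgr3 was slightly higher, and Fcgr4 lay near 0 with a sign that depended on the scaling. IL-4 acts on genes through the factor STAT6, so the 250 bases before the transcription start of each are shown, taken from RefSeq on GRCm38.p6 and read along the gene's strand. Capitals mark TTCNNNGAA or TTCNNNNGAA, which are letters that STAT factors can bind, and GAGGAA or its reverse complement TTCCTC, a core of the macrophage factor PU.1.
Fcgr1, chr3:96293970-96294219, minus strand: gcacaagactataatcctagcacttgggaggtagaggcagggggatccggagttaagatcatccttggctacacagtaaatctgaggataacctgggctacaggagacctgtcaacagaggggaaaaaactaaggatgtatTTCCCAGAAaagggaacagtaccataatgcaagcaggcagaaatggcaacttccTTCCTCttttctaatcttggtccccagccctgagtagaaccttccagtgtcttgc
Fcgr2b, chr1:170976072-170976321, minus strand: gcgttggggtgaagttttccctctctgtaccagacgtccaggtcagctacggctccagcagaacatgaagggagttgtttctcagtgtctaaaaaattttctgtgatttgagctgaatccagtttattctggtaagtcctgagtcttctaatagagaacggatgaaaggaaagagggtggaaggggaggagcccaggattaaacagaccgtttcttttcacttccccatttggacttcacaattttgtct
Fcgr3, the downstream of its starts, chr1:171059395-171059644, minus strand: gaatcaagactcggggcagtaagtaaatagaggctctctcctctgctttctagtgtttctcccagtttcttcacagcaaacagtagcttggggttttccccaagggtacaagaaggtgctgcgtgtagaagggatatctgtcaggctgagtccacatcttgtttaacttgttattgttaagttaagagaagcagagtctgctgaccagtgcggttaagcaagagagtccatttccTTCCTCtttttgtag
Fcgr4, chr1:171018676-171018925, plus strand: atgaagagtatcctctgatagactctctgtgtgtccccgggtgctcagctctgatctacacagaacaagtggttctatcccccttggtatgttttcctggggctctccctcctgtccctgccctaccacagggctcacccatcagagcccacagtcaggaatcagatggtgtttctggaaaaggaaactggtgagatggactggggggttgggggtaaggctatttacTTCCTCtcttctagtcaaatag
The Fcgr1 window held TTCCCAGAA from 109 to 101 bases before the start and TTCCTC from 55 to 50 bases before it. TTCCTC also stood from 15 to 10 bases before this start of Fcgr3 and from 22 to 17 bases before that of Fcgr4. The Fcgr2b window held none of these motifs, which says only that these letters are not in those 250 bases.

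RefSeq gave 12 such windows for the 9 genes, with several starts for Fcgr3 and Fcer2a. The PU.1 core on either strand was in 6 windows of 5 genes (Fcgr1, Fcgr3, Fcgr4, Fcer1a and Fcrls), and 23.3% of all 32817 windows of this length held it. The Fcgr3 windows overlap and share 1 site, which is counted in each of them. TTCNNNGAA was in 1 member window, that of Fcgr1, and in 7.01% of all windows. TTCNNNNGAA was in 1 member window, where Fcer2a held TTCCCAAGAA, and in 5.85% of all windows. Matches of different motifs did not overlap in the member windows. No window of Fcgr2b, Fcer1g or Fcgrt held any of them.

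The probe for Fcgr2b, the inhibitory receptor, was printed in 10 spots on each array, while the other 8 genes had 1 spot each. In untreated BMDMs its intensity lay between 3803 and 4350 over the 9 spots without an outlier flag, with a median of 4093. After IL-4 it lay between 15836 and 18258 over 10 spots, with a median of 17171. The lowest spot after IL-4 was brighter than the highest untreated spot, so the spots did not overlap. After scaling, Fcgr2b was higher after IL-4 by 1.97 on the log2 scale, which is 3.92-fold. Over the 9 spots kept on both arrays the mean difference was 1.99 ± 0.061 (SD), and single spots ran from 1.88 to 2.07. These spots share 1 RNA sample per array, so their spread covers printing and scanning and not the variation between cultures. The flagged untreated spot read 3708 and was the dimmest there. Of the 17242 genes, 0.389% (67 genes, Fcgr2b among them) were as far above 0 as Fcgr2b. The difference stayed between 1.89 (quantile normalization) and 2.30 (spike-in scaling) under 10 other ways of processing the arrays. Of these 10, the median over probes could not move any of the 9 genes, which have 1 probe each. For these 9 genes the authors' processed values gave nearly the same differences as the scanner output.

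**Figure D2:**
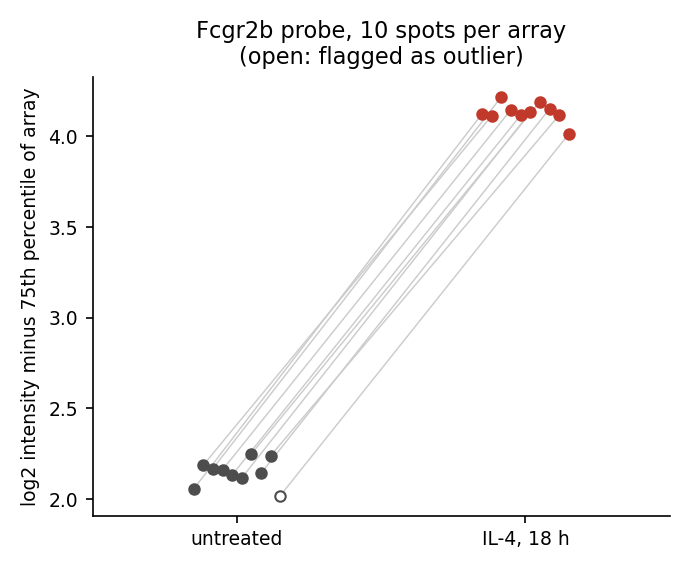
Scaled log2 intensity of the 10 spots of the Fcgr2b probe on each array, with an open symbol for the 1 spot flagged as an outlier. The untreated spots and the IL-4 spots form separate groups, 1.97 apart on the log2 scale between their means.

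The probe matched 1 of the RefSeq transcripts of Fcgr2b by accession, so the membrane isoforms of this gene, which differ in their cytoplasmic tail, were not told apart. Fcgr2b and Fcgr3 encode closely similar extracellular parts, and whether either probe reads the other transcript was not tested, because the probe sequences were not used here.

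Fcgr1, which encodes CD64, the receptor that binds monomeric IgG with high affinity, read 2441 in untreated BMDMs and 1118 after IL-4. After scaling it was lower by 1.23 on the log2 scale, 2.34-fold, and the spot-to-spot SD of repeated probes of similar brightness was 0.058. Of the 17242 genes, 0.789% (136 genes) were as far below 0. The difference ran from -1.28 to -0.90 over 10 alternatives and was at least 2-fold in 9 of them, the exception being spike-in scaling.

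Fcgr3 encodes CD16, a low-affinity receptor for immune complexes. Its intensity was 10546 in untreated BMDMs and 15405 after IL-4, a difference of 0.45 after scaling, or 1.36-fold higher. Spots of similar probes varied by 0.045, and 6.86% of genes were as far above 0. Fcgr4, a receptor for IgG2a and IgG2b immune complexes, went from 3224 to 2779, a difference of -0.31, or 1.24-fold lower, and 15.9% of genes were as far below 0. With spike-in scaling the Fcgr4 difference was 0.013, so its direction is not settled. Fcgr3 stayed above 0 in all 10 alternatives, between 0.37 and 0.77.

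Fcer1g, the ITAM chain on which these activating receptors depend, was bright on both arrays, with 81359 in untreated BMDMs and 77103 after IL-4, and no spot was saturated. Its difference was -0.18, or 1.13-fold lower, and 26.9% of genes were as far below 0. Median scaling turned it to 0.037 and spike-in scaling to 0.15, so no direction can be given. The spot error of 0.039 for its brightness rests on 3 repeated probes.

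**Figure D3:**
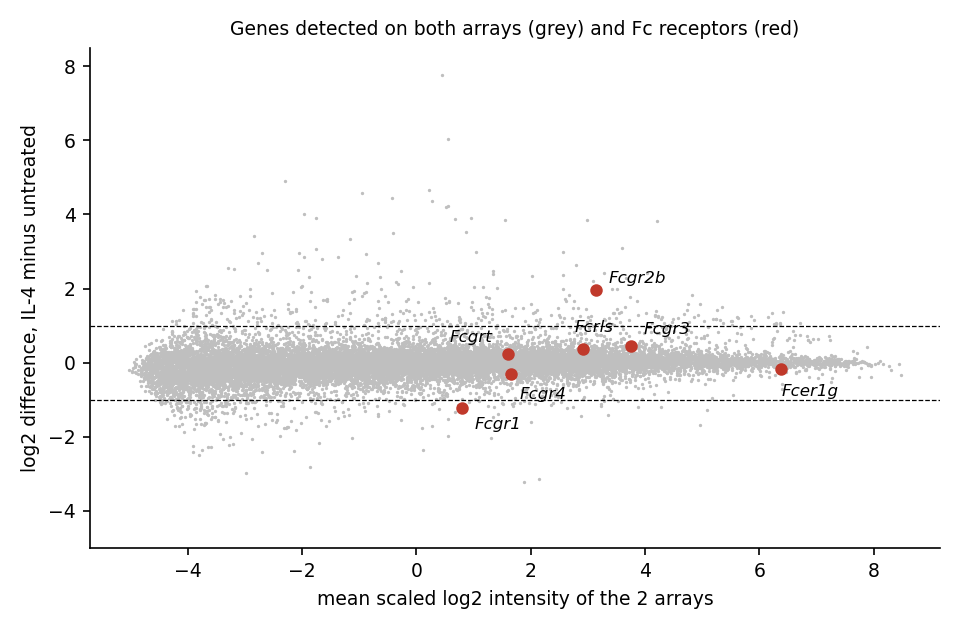
Log2 difference (IL-4 minus untreated) against mean scaled log2 intensity for genes detected on both arrays (grey) and the Fc receptor genes among them (red, named). Fcgr2b at 1.97 and Fcgr1 at -1.23 lie outside the range from -0.62 to 0.56 between the 5th and 95th percentiles of all these genes, and the other 5 lie inside it.

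A difference between the differences of 2 genes does not depend on how the arrays are scaled to each other by a constant. On this measure Fcgr2b was higher relative to Fcgr1 by 3.20 on the log2 scale, or 9.18-fold, with a spot error of 0.075. Relative to Fcgr4 it was higher by 2.29 (4.88-fold), relative to Fcer1g by 2.15 (4.44-fold) and relative to Fcgr3 by 1.53 (2.88-fold). Compared with untreated BMDMs, the inhibitory receptor was therefore higher after IL-4 relative to each activating receptor and to their common chain. This is a change between the arrays and does not rank the levels of these genes. The activating receptors also separated from each other, since Fcgr3 was higher relative to Fcgr1 by 1.67 and relative to Fcgr4 by 0.76, and Fcgr4 relative to Fcgr1 by 0.91. Fcer1g and Fcgr4 differed by 0.14 with a spot error of 0.064, and Fcgr3 and Fcrls by 0.079 with a spot error of 0.066. The second of these gaps lies near its spot error. Spot errors leave out the spread between cultures, so a gap larger than the spot error may still be within that spread.

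**Figure D4:**
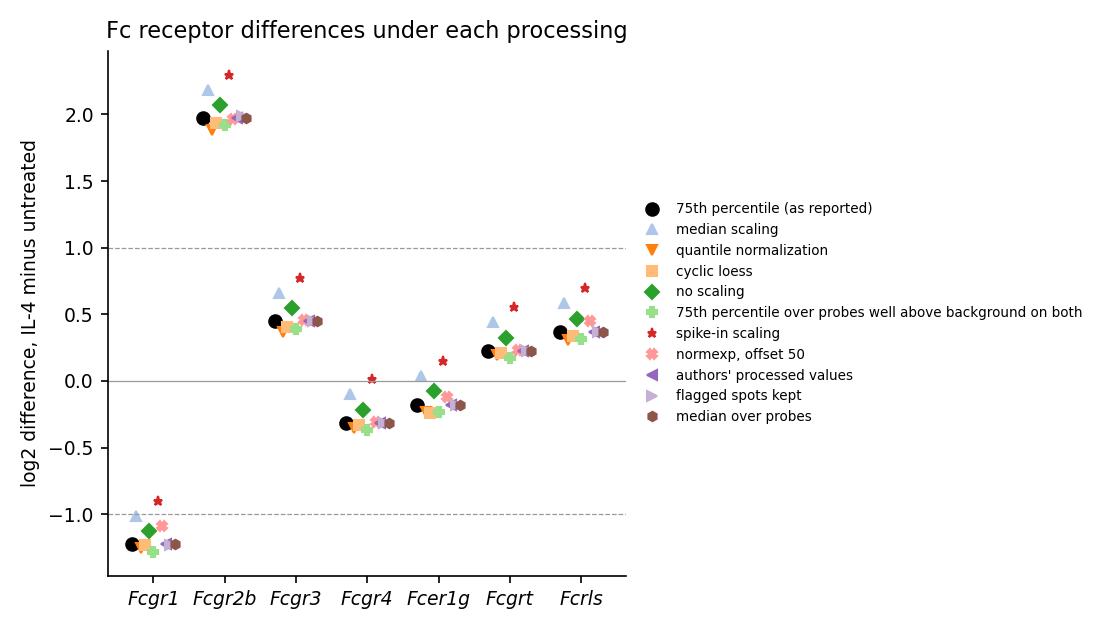
Log2 difference (IL-4 minus untreated) of each detected Fc receptor gene under the processing reported here (black) and 10 alternatives (coloured symbols). Fcgr2b is above 1 under every setting, Fcgr1 is below -1 under all but spike-in scaling, and Fcgr4 and Fcer1g cross 0.

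Fcgrt, the neonatal Fc receptor, read 2563 in untreated BMDMs and 3212 after IL-4, a difference of 0.23 or 1.17-fold higher, which 16.6% of genes reached. Its light chain B2m, β2-microglobulin, differed by 0.11. Fcrls, a receptor-like gene of mouse macrophages and microglia, went from 6081 to 8410, a difference of 0.37 or 1.29-fold higher, which 9.07% of genes reached. Both genes stayed above 0 in all 10 alternatives, Fcgrt between 0.17 and 0.55 and Fcrls between 0.31 and 0.69.

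Neither IgE receptor was detected. Fcer1a, the IgE-binding chain of the high-affinity receptor FcεRI, read 7.09 in untreated BMDMs and 6.56 after IL-4, and the lowest intensities of any detected probe were 29.2 and 27.9. The signal of Fcer1a was not significantly above background by the software's own test on either array. Its partner chain Ms4a2 read 5.89 and 5.66 and was not detected. Fcer2a, which encodes the low-affinity IgE receptor CD23, read 22.2 in untreated BMDMs and 32.7 after IL-4. The software called its signal positive and significant on both arrays, though below the stricter flag used here, and at this brightness the spots of repeated probes varied by 0.39 on the log2 scale. No fold is given for either gene, and a change in Fcer2a was not detectable at this signal. Adam10, the protease that sheds CD23, differed by 0.083.

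Among the signalling genes downstream of these receptors, a few were far from 0 and most were near it. Of 33 genes for ITAM kinases and adaptors, 32 were detected on both arrays, 14 of them above 0 and 18 below, with a median difference of -0.12. Past 2-fold, 3 of the 33 were higher and 1 was lower. The shares over genes detected on 1 or both arrays were 2.86% and 4.47%. Counts this small in this list and the next ones are a description only. The next lists also include genes detected on neither array, which cannot be called and which these shares leave out. The median turned to 0.20 with spike-in scaling and was also above 0 with median scaling. The higher genes were Prkcd, a protein kinase C isoform, at 1.78 (3.42-fold), and the Src-family kinases Fyn at 1.68 (3.20-fold) and Fgr at 1.64 (3.12-fold). Fgr went from 369 to 1235 and Fyn from 323 to 1107. Src, of the same kinase family, read 111 in untreated BMDMs and was not detected after IL-4, which gives a bound of 4.26-fold lower. With normexp its log2 difference was -1.09, against a bound of -2.09 here. Lyn, a Src-family kinase that phosphorylates ITAMs, differed by -0.38. Syk, the kinase that docks on the γ chain, differed by -0.13, and by 0.20 with spike-in scaling. Btk differed by 0.50, Plcg2 by -0.43, and the NADPH oxidase genes Cybb and Ncf1 by -0.57 and -0.70.

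Of 15 genes for ITIM phosphatases and other inhibitors, 13 were detected on both arrays, 8 of them above 0 and 5 below, with a median difference of 0.12. Past 2-fold, 2 of the 15 were higher and 0 were lower, beside the same shares of 2.86% and 4.47%. The 2 were Dok2, an adaptor that restrains Ras signalling, at 1.40 (2.64-fold, from 10319 to 29229), and Cblb, a ubiquitin ligase that limits tyrosine kinase signalling, at 1.21 (2.31-fold, with its probes at 1.01 and 1.21). Dok1 differed by 0.51. The phosphatases that Fcgr2b and related receptors recruit were not among the higher genes, with Inpp5d, which encodes SHIP1, at -0.47 and Ptpn6, which encodes SHP-1, at -0.03.

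Of 12 ITAM chains and receptors that pair with such chains, 9 were detected on both arrays, with a median of -0.28 that became 0.042 with spike-in scaling. Past 2-fold, 0 of the 12 were higher and 2 were lower, again beside shares of 2.86% and 4.47%. The 2 were the C-type lectins Clec4d at -1.68 (3.20-fold lower, from 51256 to 17187) and Clec4n, which encodes Dectin-2 and signals through the γ chain, at -1.60 (3.02-fold lower, from 6408 to 2271). Clec4e, which encodes Mincle, differed by 0.096. Tyrobp, the other main ITAM chain of macrophages, differed by -0.28. Both lectins stayed at least 2-fold lower in all 10 alternatives. The other Fc-binding proteins on the array had 5 of 13 genes detected on both arrays, with a median of 0.051 that became -0.0035 under 1 alternative. Fcrl1 was just past 2-fold lower as a bound and in 4 of 10 alternatives only, from a dim 52.7 in untreated BMDMs.

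**Figure D5:**
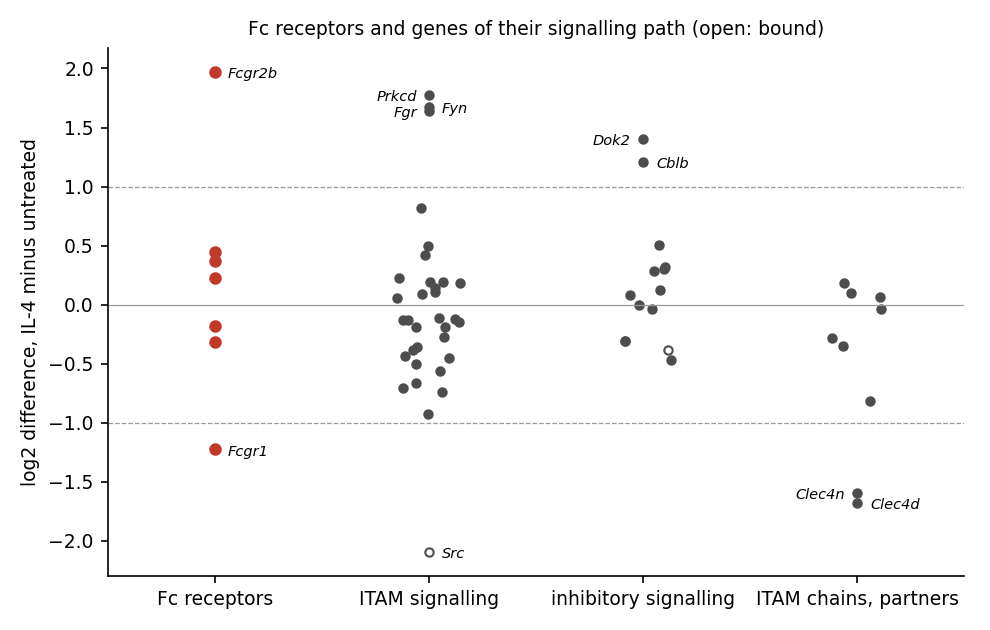
Log2 difference (IL-4 minus untreated) of the detected Fc receptor genes, ITAM kinases and adaptors, ITIM phosphatases and inhibitors, and ITAM chains with their partner receptors, where open symbols are bounds. Most genes of each group lie within 1 of 0, and the named points are Fcgr2b, Prkcd, Fyn, Fgr, Dok2 and Cblb above and Fcgr1, Src, Clec4d and Clec4n below.

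Markers of the cells in the cultures are given because Fc receptors also mark other blood cells. All 6 macrophage markers measured other than Fcgr1 were detected on both arrays, 2 of them above 0 and 4 below, with a median difference of -0.71 that lay between -0.78 and -0.38 in the 10 alternatives. Adgre1, which encodes F4/80, was at 0.17 and Csf1r, the M-CSF receptor, at 0.090. Cd14 was at -1.42, Mertk at -1.14, Itgam, which encodes CD11b, at -0.71 and Lyz2 at -0.70. These are values of the brightest probe. The 3 probes of Itgam ran from -0.71 to -0.24, and the 3 of Csf1r from -0.11 to 0.090, so the sign of Csf1r depended on the probe. Fcgr1 was therefore lower together with most of these markers, and their part in its value was not tested. The M2 markers were higher, by 7.76 for Arg1, 3.83 for Chil3 and 2.42 for Mrc1. Retnla was detected after IL-4 only, with a bound of 9.22 on the log2 scale (595-fold higher). With normexp Arg1 was at 6.79 and Retnla at 7.51, which is below that bound. Of 8 mast cell and basophil markers, 6 were detected in untreated BMDMs and 4 after IL-4, with summed intensities of 711 and 522. Over all gene spots the IL-4 array also detected less, 57.4% against 59.8%. The part of this in the counts of dim markers was not tested. The mast cell protease Cpa3 (from 91.2) had a bound of -1.81, or 3.51-fold lower, and was at -1.03 with normexp. Of 6 B cell markers, 2 were detected on each array, with summed intensities over the 6 of 621 and 483. The 2 were Cd79b, which read 473 and 395, and Cr2, which read 51.4 and 51.8. Ms4a1, Cd79a and Pax5 were on neither. All 5 neutrophil markers measured were detected on both arrays, with a median of -0.54 and summed intensities of 5647 and 4329. Of 4 markers each, 2 NK and T cell markers were detected in untreated BMDMs and 1 after IL-4, 3 eosinophil markers on both arrays and 1 dendritic cell marker on both. The part of these cells in the receptor values was not tested, and in bulk RNA fewer cells of a type and less RNA per cell cannot be told apart.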

How the data were processed

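RNA of 1 untreated and 1 IL-4-treated BMDM sample was labelled with Cy3 (500 ng of RNA per labelling) and hybridised to 1 single-colour array each, and groups came from the labels. Scanner output was deposited by the authors (Feature Extraction 10.10.1.1), and its spot intensity had its background subtracted and trends across the array removed, with no scaling between arrays. They also deposited processed log2 values, whose tool and centring are not given in the sources used here. For the 9 genes, the difference between the processed columns was within 0.00057 of the one computed from the scanner output.

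From the deposited intensity, control and outlier spots were dropped, log2 values were averaged per probe, and each array's 75th percentile was subtracted. The brightest probe stood for a gene. A gene detected on 1 array got a bound, with the other array set to its lowest detected signal or to the gene's own signal if higher, and a gene detected on neither got no fold. Such a bound belongs to this processing and is no strict limit, since a probe brighter than that lowest signal can still be undetected. For the spot error, the SD of the log2 difference was taken between paired spots of each probe printed in 10 spots, and its median was used over those within 1 log2 unit of the gene's signal. It covers technical spread within the arrays alone.

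The 9 genes and the gene lists were chosen with earlier results of these data known. Named genes are the 9 members, and of the lists those at least 2-fold changed or defining for a list, apart from items that are not reported here. Names and promoter windows came from RefSeq tables of GRCm38.p6, whereas the array was annotated on mm9. Counting was tested on simulated data. The planted changes were in bright probes only, so the counting of changes in dim genes, which get bounds, was not tested. Alternatives were other scalings, normexp with an offset of 50 on median pixel intensities, the processed values, flagged spots kept, the median over probes, other filters on dim probes, and cutoffs of 1.5-fold and of 1.5 on the log2 scale. R 4.3.3, limma 3.58.1, Python 3.11.15, numpy 2.4.6 and pandas 2.3.3 were used.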

Additional observations from a re-analysis of the deposited data

How the results depend on the processing

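Fcgr2b was the 1 gene past the cutoff in the higher direction in the processing reported here and in all 14 alternatives. Fcgr1 was the 1 gene past the cutoff in the lower direction in 12 of the 14, and that count was 0 with spike-in scaling and 0 at a log2 cutoff of 1.5, which leaves the value of Fcgr1 as reported. Several of the 14 could hardly move these counts. With 1 probe per gene, the median over probes repeats the reported values. The other filters on dim probes leave the 7 detected genes as they were. The processed values differ from the scanner output by at most 0.00057, and keeping flagged spots adds 1 spot, of Fcgr2b. The median over the 7 detected genes, 0.23, became 0.44 when scaled on medians, 0.33 unscaled, 0.17 when the percentile was taken over probes detected on both arrays and 0.55 with spike-in scaling. Median and spike-in scaling also moved the median of all genes, to 0.20 and 0.31, and the 8 spike-in probes used differed by -0.23 at the median. Over the 19743 genes detected on 1 or both arrays, 564 were at least 2-fold higher and 883 lower as reported. The counts were 1024 and 451 with spike-in scaling, 801 and 532 with quantile normalization, 827 and 564 with median scaling, 297 and 268 with normexp, 848 and 1645 with the authors' processed values, 363 and 270 among genes on both arrays only, 1389 and 4075 without a filter, 1206 and 2164 at 1.5-fold, and 228 and 302 at a log2 cutoff of 1.5. The authors' processed values were counted without bounds for genes detected on 1 array. Cpa3, for example, was at -3.94 there, against a bound of -1.81 as reported. No paired analysis was possible because there was a single array for each condition. Signal over background limits Fcer1a and Fcer2a, and 1 array per condition limits every difference.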

Other observations

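On chromosome 1, Fcgr2b, Fcgr4 and Fcgr3 lie next to each other in the RefSeq order of protein-coding genes, and Fcer1g follows a few genes on. From Fcgr2b to Fcer1g this order holds 11 genes, 4 of them Fc receptor genes. The neighbours Fcgr2b, Fcgr4 and Fcgr3 differed after IL-4 by 1.97, -0.31 and 0.45 on the log2 scale, and the value of Fcgr4 was 0.013 with spike-in scaling. Of the other 7 genes, 6 were detected on both arrays, 0 were higher by 2-fold or more and 1 was lower by that much. The shares over genes detected on 1 or both arrays were 2.86% and 4.47%, and counts this small are a description only. The lower gene was Pcp4l1 at -1.30, which is named after its value was seen. On chromosome 3, Fcrls at 0.37 is followed by Cd5l, a secreted macrophage protein, at -0.51, and Fcrl5 at 0.012, with Fcrl1 between these.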
